A study of Mus musculus with 6 samples.

Results

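Genes of macrophages and related myeloid cells were compared between intestinal crypt stem cells with the control vector and cells overexpressing the circular RNA circEZH2_005. The genes were taken by name, and all 10 (Lyz2, Cd68, Adgre1, Csf1r, Cd14, C1qa, C1qb, Itgam, Itgax and Tyrobp) were among the 28752 genes of the deposited table. The vector samples (n = 3, genotype labelled WT) and the circEZH2_005 samples (n = 3, adenoviral overexpression) came from mouse Lgr5+ stem cells that were sorted by GFP and grown as organoids, and all 6 were infected for 72 h and then put through hypoxia/reoxygenation (H/R) with 4 h at 2% O2. The study describes its experiments in general as repeated on independent biological replicates, but no source used here ties these 6 samples to separate animals or cultures, so the p-values measure the spread between these samples only. All animals of the study were male, and C57BL/6 mice are named for its animal experiments, whereas the strain background and age of the Lgr5-GFP mice are not given in the sources used here.

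The totals were between 71506487 and 79919893 counts per sample, at which 3 counts, taken as the lowest level told from none, were between 0.0375 and 0.042 CPM (counts scaled to the size of the library). Vector sample 2 stood nearer to the circEZH2_005 samples than its group did, with correlations of log2 CPM across genes of between 0.965 and 0.971 to them, against between 0.951 and 0.964 for vector samples 1 and 3. Genes are not independent replicates. Epithelium was visible in the gene Epcam, at between 1290 and 1620 CPM. The stem cell gene Olfm4 was at between 1000 and 2310 CPM. Among other listed genes, epithelial Krt20 was at between 770 and 2250 CPM and Lyz1 of Paneth cells at between 946 and 2790 CPM. These levels therefore do not show stem cells alone. The stem cell receptor gene Lgr5 was at 15.5 ± 3.19 CPM with vector and 8.45 ± 0.702 CPM with circEZH2_005 (SD, n = 3 each), and it fell by 0.88 on the log2 scale (adjusted p = 0.0434, edgeR).

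Macrophages are phagocytes that reside in the connective tissue under the gut epithelium, where they clear dying cells and bacteria and depend on signals through the receptor that Csf1r encodes. Dendritic cells, monocytes and neutrophils share part of their gene set, and some of these genes are used outside the myeloid lineage: lysozyme is also a Paneth cell product, and Itgax is also transcribed in some lymphocytes of the gut. In bulk RNA, fewer cells of a type and less RNA per cell cannot be told apart.

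All 10 genes were measured at low levels. By FPKM, which allows levels of different genes to be compared per transcript length, Lyz2 and Cd14 led in vector samples at 7.17 ± 3.0 and 6.26 ± 0.349 FPKM (SD, n = 3), and their ranges overlapped. Itgam at 3.15 ± 0.804 and Tyrobp at 2.99 ± 1.57 FPKM followed, again with overlapping ranges. C1qb, C1qa, Cd68 and Itgax lay between 1.32 and 0.845 FPKM, each overlapping the next. Csf1r at 0.5 ± 0.141 FPKM overlapped Itgax, and Adgre1, at 0.15 ± 0.0548 FPKM, lay below all others without overlap. In circEZH2_005 samples the order was Lyz2, Cd14, Tyrobp, Itgam, Itgax, C1qa, C1qb, Cd68, Csf1r and Adgre1, from 7.65 ± 4.18 down to 0.191 ± 0.119 FPKM (SD, n = 3), and every neighbouring pair overlapped. Together the 10 genes took between 45.0 and 60.1 CPM in vector samples and between 65.7 and 97.4 CPM in circEZH2_005 samples. Of these sums, Itgax made up between 2.83 and 5.96 CPM with vector and between 10.5 and 21.7 CPM with circEZH2_005. The gap between the sums therefore cannot be read as a rise of all 10 genes.

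**Figure D1:**
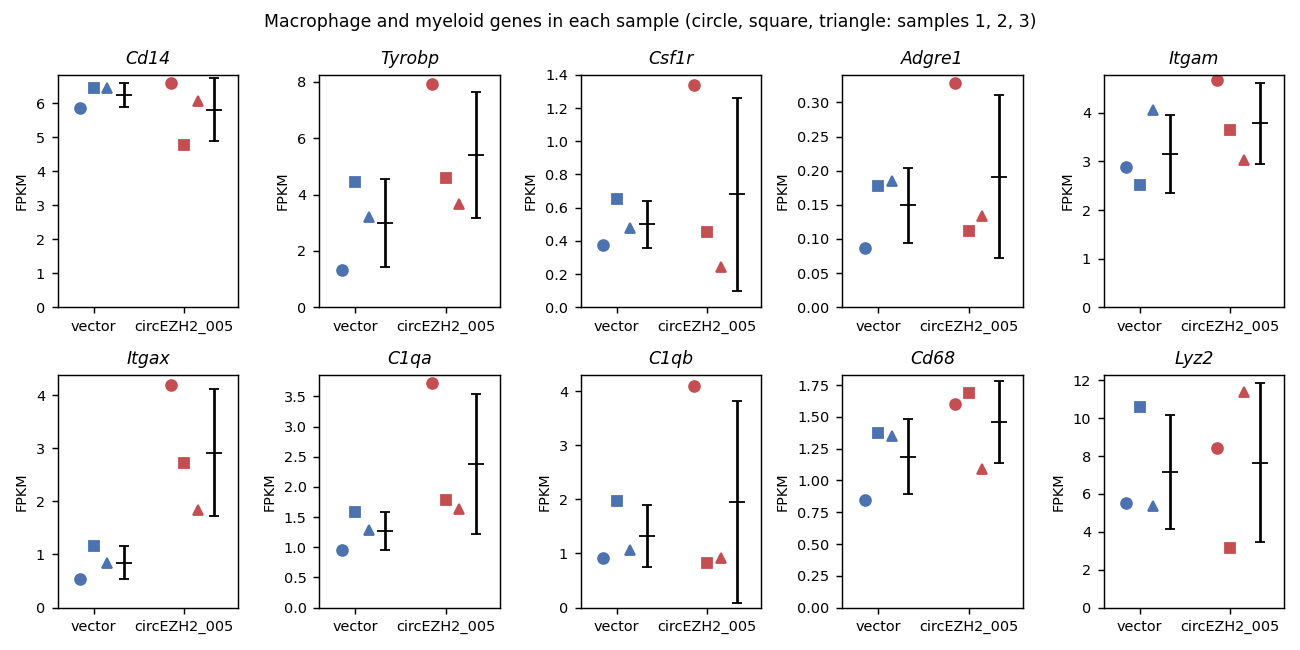
FPKM (vertical axes, linear from 0) of each of the 10 genes in the 3 vector samples (blue) and the 3 circEZH2_005 samples (red), with the mean and SD of each group in black. Only Itgax and C1qa have all red points above all blue ones, and the circle of circEZH2_005 sample 1 is the highest point for 8 of the 10 genes.

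Itgax was the single gene of the 10 that was called higher with circEZH2_005 after adjustment. Of the 10, 1 was higher and 0 were lower at an adjusted p under 0.05 (edgeR's quasi-likelihood test), beside 2.69% of all 18348 genes tested that were higher and 0.986% that were lower. At an unadjusted p under 0.05, 2 of the 10 were higher and 0 lower, beside 14.0% and 9.72% of all genes tested. With a fold change over 2 and an unadjusted p under 0.05, 1 of the 10 was higher, beside 6.22% of all genes tested. The groups were apart, with circEZH2_005 higher, in 2 of the 10, beside 16.4% of the genes tested. The median log2 fold change of the 10 was 0.45, where that of all genes tested was 0.0, and 9 of the 10 values were positive. By CPM, 7 of the 10 genes were highest in circEZH2_005 sample 1 (8 by FPKM, where Cd14 is added) and 5 were lowest in vector sample 1.

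**Figure D2:**
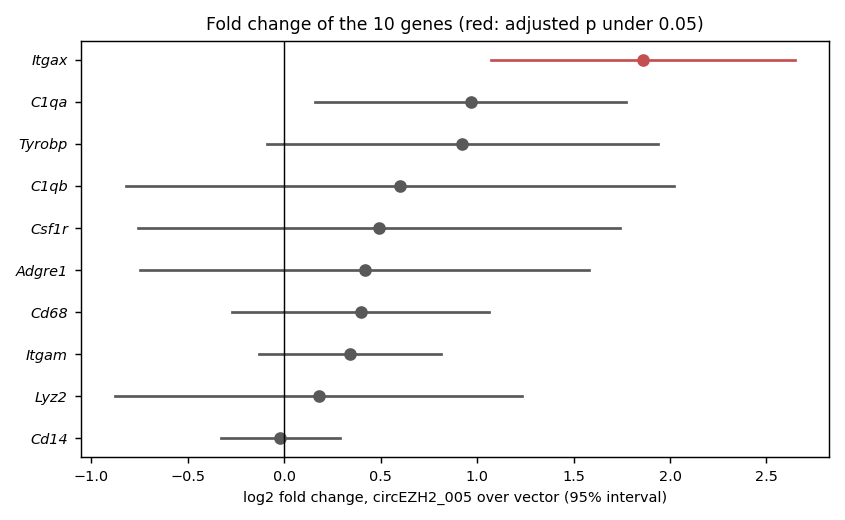
Log2 fold change of circEZH2_005 over vector (horizontal axis, points) with its 95% interval (lines) for each of the 10 genes, from edgeR on 3 samples per group. Itgax (red) is the gene with an adjusted p under 0.05, at 1.86, and the intervals of Itgax and C1qa lie above 0.

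Itgax (ENSMUSG00000030789, chromosome 7, 128129547 to 128150657, plus strand, mm10) encodes integrin alpha X, the CD11c chain of a leukocyte adhesion and complement receptor. Vector samples 1 to 3 had 205, 445 and 345 Itgax counts, and circEZH2_005 samples 1 to 3 had 1724, 1167 and 751. The lowest circEZH2_005 sample was thus well above the highest vector sample, and the groups did not overlap. Scaled for library size this was 4.4 ± 1.56 CPM with vector and 15.9 ± 5.61 CPM with circEZH2_005 (SD, n = 3 each), 3.63 times as much. On the log2 scale the difference was 1.86 (95% interval 1.07 to 2.65, adjusted p = 0.0362, edgeR). The two-sided exact permutation test of the same samples gave p = 0.1, the smallest that 3 against 3 allow. The log2 fold change was between 1.57 and 2.14 with each sample left out in turn. The call held without vector sample 2 or circEZH2_005 sample 3, whereas the adjusted p was 0.122 without vector sample 1, 0.152 without vector sample 3, 0.0564 without circEZH2_005 sample 1 and 0.122 without circEZH2_005 sample 2 (edgeR).

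Itgam (ENSMUSG00000030786, chromosome 7, 128062640 to 128118491, plus strand) encodes CD11b, the alpha M chain found on macrophages, monocytes and neutrophils, and ends 11055 bases before Itgax begins. Its counts were 1156, 1007 and 1722 with vector and 2004, 1636 and 1283 with circEZH2_005. In counts, vector sample 3 was higher than both circEZH2_005 sample 2 and sample 3. By CPM, vector sample 3 and circEZH2_005 sample 2 were both at 22.0, above circEZH2_005 sample 3 at 17.9, so the groups overlapped. The log2 fold change was 0.34 (95% interval -0.13 to 0.81, adjusted p = 0.363, edgeR), an interval that ends below the lower bound of 1.07 for Itgax, though the difference between the genes was not itself tested. Itgax counts were 17.7%, 44.2% and 20% of Itgam counts in the vector samples, in order, and 86.0%, 71.3% and 58.5% in those with circEZH2_005. The ratio of these neighbouring integrin genes was therefore higher in every circEZH2_005 sample. The annotation places Gm49368 over Itgam on the same strand, so reads could be shared between them.

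The 250 bases upstream of the starts of Itgam and Itgax (RefSeq, GRCm38.p6) are shown because these neighbours differed in the comparison. Capitals mark the purine-rich letters GAGGAA, the core of many binding sites of the myeloid factor PU.1, or their reverse complement TTCCTC, searched on both strands. The windows are chr7:128062390-128062639 for Itgam and chr7:128129300-128129549 for Itgax, both on the plus strand.
Itgam: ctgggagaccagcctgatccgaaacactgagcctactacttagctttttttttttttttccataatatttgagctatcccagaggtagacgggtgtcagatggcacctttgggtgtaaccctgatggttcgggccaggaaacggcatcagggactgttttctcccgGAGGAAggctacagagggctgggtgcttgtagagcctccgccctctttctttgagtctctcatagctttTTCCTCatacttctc
Itgax: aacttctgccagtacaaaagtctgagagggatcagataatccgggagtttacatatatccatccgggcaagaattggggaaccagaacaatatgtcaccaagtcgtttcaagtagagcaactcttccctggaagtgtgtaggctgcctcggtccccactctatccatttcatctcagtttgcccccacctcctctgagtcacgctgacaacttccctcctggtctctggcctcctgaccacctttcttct
The Itgam window held 2 matches, 1 on each strand, with their first bases 84 and 15 bases before the start, and the Itgax window held 0. Of 32851 such windows over all genes, 23.3% held a match. A match is a run of letters and not a measured site, and its absence here says only that these letters are not in this window.

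The fixed partners of these alpha chains were the genes of other integrin chains, of ligands and of adaptors. Itgb2, which encodes the common beta chain CD18, had counts of 392, 1286 and 603 with vector and 3305, 2161 and 1485 with circEZH2_005. Its groups did not overlap, and the log2 fold change was 1.59 (adjusted p = 0.0817, edgeR), which did not pass the adjustment. Itgad, the third alpha chain of the cluster, lies 3718 bases after Itgax and rose from 1.56 ± 1.07 CPM to 7.49 ± 1.45 CPM with circEZH2_005 (SD, n = 3 each), or by 2.26 on the log2 scale (adjusted p = 0.0426, edgeR). Of the 7 integrin partner genes, 2 were higher at an adjusted p under 0.05 and 0 lower, the other being the adaptor talin, Tln1, at 0.5. All 7 lay above the vector samples without overlap, beside 16.4% of all genes tested, and their median log2 fold change was 1.59. At an adjusted p under 0.05, 2.69% of all genes tested were higher.

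Tyrobp (ENSMUSG00000030579, chromosome 7, 30413760 to 30417582, plus strand) encodes DAP12, an adaptor with an activating motif that pairs with receptors of myeloid cells and natural killer cells. Its counts were 72, 237 and 181 with vector and 453, 275 and 208 with circEZH2_005. Vector sample 2 exceeded circEZH2_005 sample 3 in both counts and CPM, so the groups overlapped. The log2 fold change of 0.92 had a 95% interval from -0.09 to 1.94 and did not pass (adjusted p = 0.249, edgeR), and it was between 0.58 and 1.31 with each sample left out. Among 13 partners and signalling genes, 9 were tested and 0 passed the adjustment in either direction. Of the 9, 5 were higher at an unadjusted p under 0.05, beside 14.0% of all genes tested. The largest value was that of the adaptor gene Lcp2, at 1.75 (adjusted p = 0.097, edgeR), and the smallest that of Trem1, at -0.61. Fcer1g, the Fc receptor chain with the same role as Tyrobp, was at 1.27 (adjusted p = 0.0864, edgeR). Trem2, the DAP12 partner of tissue macrophages, had counts of 4, 14 and 4 with vector and 0, 6 and 10 with circEZH2_005, and was below the filter for testing.

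Cd14 (ENSMUSG00000051439, chromosome 18, 36725067 to 36726798, minus strand) encodes the co-receptor that hands bacterial lipopolysaccharide to the TLR4 receptor. Its counts were 806, 893 and 946 with vector and 976, 739 and 887 with circEZH2_005. The samples lay close together, at 11.7 ± 0.517 CPM with vector and 11.5 ± 1.38 CPM with circEZH2_005 (SD, n = 3 each). Its log2 fold change was -0.02, with the narrowest 95% interval of the 10, from -0.33 to 0.29 (adjusted p = 0.936, edgeR). Tlr4 itself and its co-receptor Ly96 had values of -0.28 and -0.05 (adjusted p = 0.628 and 0.899, edgeR). Of 12 genes of this pathway 0 passed the adjustment and 3 were higher at an unadjusted p under 0.05, beside 14.0% of all genes tested. Their values lay between -0.61 for the adaptor Ticam2 and 1.62 for the lipopolysaccharide-binding protein gene Lbp (adjusted p = 0.07, edgeR).

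Csf1r (ENSMUSG00000024621, chromosome 18, 61100598 to 61131134, plus strand) encodes the growth factor receptor that macrophages need to live. Its counts were 173, 301 and 232 with vector and 660, 236 and 119 with circEZH2_005. The group with circEZH2_005 held both the highest and the lowest of the 6 values. The log2 fold change was 0.49 (95% interval -0.76 to 1.74, adjusted p = 0.641, edgeR), and it was -0.37 without circEZH2_005 sample 1. Its ligands had values of -0.19 for Csf1 and -0.18 for Il34, neither past the adjustment (adjusted p = 0.703 and 0.804, edgeR). Of the 8 ligand and receptor genes of the colony-stimulating factor group, 2 were higher and 0 lower at an adjusted p under 0.05. Over all genes tested these shares were 2.69% and 0.986%. The 2 were Csf2rb2, an interleukin receptor subunit gene with the near-identical neighbour Csf2rb, at 2.15 (adjusted p = 0.041, edgeR) and the dendritic cell growth factor gene Flt3l at 1.12 (adjusted p = 0.0484, edgeR). Hmgxb3 overlaps Csf1r on the other strand, and no source used here says that reads were counted by strand.

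Adgre1 (ENSMUSG00000004730, chromosome 17, 57358691 to 57483527, plus strand) encodes F4/80, the surface protein by which mouse macrophages are usually recognised. It was the lowest of the 10, with counts of 23, 46 and 51 with vector and 91, 33 and 38 with circEZH2_005. CircEZH2_005 sample 1 was again the highest, and the other samples of its group lay within the vector range. Its log2 fold change of 0.42 (95% interval -0.75 to 1.58, adjusted p = 0.669, edgeR) became -0.12 without that sample.

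C1qa and C1qb encode chains of C1q, the recognition protein that starts the classical complement pathway and is made largely by tissue macrophages. C1qa (ENSMUSG00000036887, chromosome 4, 136895917 to 136898803, minus strand) had counts of 79, 132 and 113 with vector and 331, 166 and 144 with circEZH2_005. The groups did not overlap, though the margin between vector sample 2 and circEZH2_005 sample 3 was small, at 1.77 against 2.01 CPM. The log2 fold change was 0.97 (95% interval 0.16 to 1.77), and its unadjusted p of 0.0247 became 0.145 after adjustment (edgeR). C1qb (ENSMUSG00000036905, chromosome 4, 136880129 to 136886187, minus strand) had counts of 80, 171 and 99 with vector and 381, 81 and 85 with circEZH2_005. Here circEZH2_005 samples 2 and 3 lay near the low end of the vector range, and sample 1 alone was above it. For C1qb the log2 fold change was 0.60 (95% interval -0.82 to 2.02, adjusted p = 0.607, edgeR), and -0.45 without circEZH2_005 sample 1. The remaining chain, C1qc, which lies between them, was also highest in circEZH2_005 sample 1. Its counts were 101, 88 and 47 with vector and 352, 113 and 94 with circEZH2_005, a value of 1.19 (adjusted p = 0.23, edgeR). For C1qc, circEZH2_005 sample 2 was above the vector range as well, at 1.52 against at most 1.39 CPM. Of 13 complement genes, beside 2.69% and 0.986% of all genes tested, 2 were higher at an adjusted p under 0.05 and 0 lower. They were the complement protease genes C2, at 1.31 (adjusted p = 0.0239, edgeR), and C1ra, at 1.13 (adjusted p = 0.0466, edgeR). C1ra and C4b have close paralogs, between which reads could be split. The largest value of the list was that of C4b, at 1.57 (adjusted p = 0.0667, edgeR), and the smallest that of the complement inhibitor gene Cd59a, at -0.83.

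**Figure D3:**
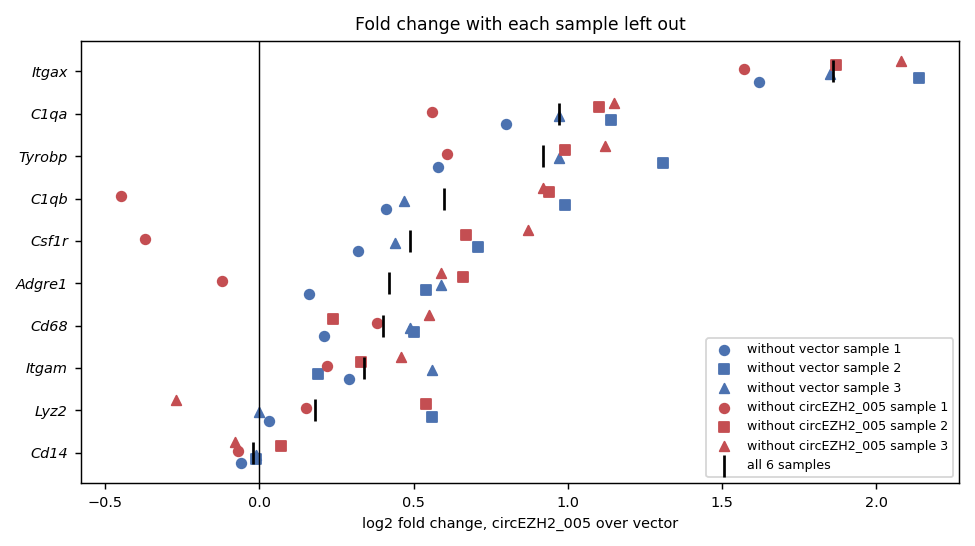
Log2 fold change of circEZH2_005 over vector (horizontal axis) for each of the 10 genes with all 6 samples (black bars) and with each sample left out in turn (blue, a vector sample left out; red, a circEZH2_005 sample left out). Csf1r, C1qb and Adgre1 move below 0 when circEZH2_005 sample 1 is left out, and Itgax stays between 1.57 and 2.14.

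Cd68 (ENSMUSG00000018774, chromosome 11, 69664213 to 69666153, minus strand) encodes a glycoprotein of late endosomes and lysosomes. Its counts were 85, 139 and 144 with vector and 174, 191 and 119 with circEZH2_005. CircEZH2_005 sample 3 lay within the vector range, so the groups overlapped, and the log2 fold change was 0.40 (95% interval -0.27 to 1.06, adjusted p = 0.452, edgeR). Among 12 lysosomal genes that most cells use, 0 passed the adjustment and 3 were higher at an unadjusted p under 0.05, beside 14.0% of all genes tested. Their values lay between -0.06 for Npc2 and 0.36 for Grn (adjusted p = 0.0551, edgeR).

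Lyz2 (ENSMUSG00000069516, chromosome 10, 117277331 to 117282321, minus strand) encodes the lysozyme of macrophages and neutrophils. Its counts were 577, 1117 and 596 with vector and 948, 367 and 1266 with circEZH2_005. Both the lowest and the highest value belonged to the circEZH2_005 group, and the log2 fold change was 0.18 (95% interval -0.88 to 1.23, adjusted p = 0.859, edgeR). Its neighbour Lyz1, the lysozyme of Paneth cells, had counts of between 70389 and 218477, and a log2 fold change of -0.59 (adjusted p = 0.258, edgeR). Lyz2 was at between 0.262% and 0.954% of the Lyz1 FPKM in a sample. The first 150 coding bases of both genes are shown because their reads could be shared, with capitals for the bases that differ.
Lyz1: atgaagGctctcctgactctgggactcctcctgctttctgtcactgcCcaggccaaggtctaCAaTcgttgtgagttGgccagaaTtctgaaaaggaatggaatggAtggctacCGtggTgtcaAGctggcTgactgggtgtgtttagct
Lyz2: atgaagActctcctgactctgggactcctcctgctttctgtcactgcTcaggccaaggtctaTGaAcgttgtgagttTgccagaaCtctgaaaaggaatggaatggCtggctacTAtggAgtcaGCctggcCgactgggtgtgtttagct
Over the whole coding length of 444 bases 22 bases differed, an identity of 95%, and the longest stretch without a difference was 118 bases (GENCODE M21 transcripts, GRCm38). With Lyz1 this much higher, the Lyz2 counts are uncertain: a small share of misplaced Lyz1 reads would be of the size of Lyz2, and its part in the Lyz2 values was not tested.

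Of 30 other macrophage and monocyte genes, 29 were in the table and 25 were tested. At an adjusted p under 0.05, 1 was higher and 0 were lower, beside 2.69% and 0.986% of all genes tested. At an unadjusted p under 0.05, 6 were higher and 1 lower, beside 14.0% and 9.72%. The median log2 fold change of the 25 was 0.66. The 1 that passed was Irf8, an interferon-responsive transcription factor of myeloid cells and lymphocytes, which rose from 142 ± 30.2 CPM to 295 ± 46.1 CPM with circEZH2_005 (SD, n = 3 each), or by 1.06 on the log2 scale (adjusted p = 0.0286, edgeR). The largest value was that of the monocyte gene Ly6c2, at 2.10 (adjusted p = 0.0716, edgeR), which belongs to a family of close paralogs. The smallest was that of the macrophage lectin gene Siglec1, at -1.54 (adjusted p = 0.441, edgeR), from counts of 7, 29 and 32 with vector and 12, 0 and 11 with circEZH2_005. Cd163, a scavenger receptor gene of resident macrophages, had at most 12 counts in any sample and was not tested. By FPKM, Irf8 lay above Ptprc, the gene of the leukocyte protein CD45, in every sample. With vector it was at 18.6 ± 4.18 against 2.25 ± 1.55 FPKM, and with circEZH2_005 at 36.3 ± 3.71 against 6.85 ± 2.34 FPKM (SD, n = 3 each). The myeloid factor gene Spi1, named after its values were seen, was at 0.16 ± 0.0264 and 0.301 ± 0.104 FPKM. Which cells gave the Irf8 reads was not tested.

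Markers of lymphocytes had larger log2 fold changes than the macrophage genes, a description with no test of the difference. The 12 T and natural killer cell markers summed to between 105 and 387 CPM with vector and between 589 and 1030 CPM with circEZH2_005. All 12 had a fold change over 2 with an unadjusted p under 0.05, beside 6.22% of all genes tested, and 1 passed the adjustment. That gene was Ncr1, a natural killer cell receptor gene that was at 0 counts in every vector sample, so it passed the filter on low counts only through the other group and no fold is given. Without Ncr1, 11 of 11 had a fold change over 2 with an unadjusted p under 0.05, 0 passed the adjustment, and the median log2 fold change was 1.96. The 8 pan-leukocyte markers summed to between 94.3 and 275 CPM with vector, the highest being vector sample 2, and to between 348 and 625 CPM with circEZH2_005. All 8 had a fold change over 2 with an unadjusted p under 0.05, 0 passed the adjustment, and the values lay between 1.25 for Lcp1 and 1.77 for Laptm5. None of the 8 was at 0 in a sample, and the part of leukocytes in the rise of Itgax was not tested.

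Markers of neutrophils and dendritic cells were scarce. The mast cell gene Mcpt1, named after its values were seen, was not, at 8.66 ± 5.28 FPKM with vector and 9.27 ± 2.85 FPKM with circEZH2_005 (SD, n = 3 each). Of the same list, Mcpt2 was at 4.79 ± 3.05 and 3.97 ± 1.26 FPKM. Other mast cell genes were scarce, with Cpa3 at 0.277 ± 0.225 and 0.338 ± 0.122 FPKM and Fcer1a at 0.103 ± 0.0992 and 0.176 ± 0.111 FPKM. Cma1 and Tpsb2 were below the filter for testing, so Mcpt1 does not stand for the whole list. The neutrophil markers summed to between 1.71 and 9.10 CPM with vector and between 0.679 and 0.991 CPM with circEZH2_005, with 3 of the 8 in the table tested, 0 past the adjustment and values between -0.67 for Csf3r and -2.0 for S100a9. Most of the sum in vector samples 1 and 3 was Ly6g, at 4.59 and 5.43 CPM, which was not tested and was at 0 in the other 4 samples. The dendritic cell markers summed to between 2.15 and 2.68 CPM with vector and between 3.87 and 5.48 CPM with circEZH2_005. Of these, 7 were tested and 1 was higher at an adjusted p under 0.05, Siglech of plasmacytoid dendritic cells, at 2.61 (adjusted p = 0.0426, edgeR). Siglech made up between 0.166 and 0.669 CPM of the sums with vector and between 1.94 and 2.49 CPM with circEZH2_005. The gap between the sums therefore cannot be read as a rise of the whole list. The smallest value was that of Zbtb46, the transcription factor of classical dendritic cells, at -0.86. The mast cell and eosinophil markers summed to between 9.47 and 26.5 CPM with vector and between 14.0 and 21.5 CPM with circEZH2_005, with 0 of 6 past the adjustment. Their smallest value was -0.39, for Prg2, and the largest was that of Ccr3. Ccr3 had counts of 8, 4 and 0 with vector and 25, 26 and 19 with circEZH2_005. It passed the filter on low counts only through the circEZH2_005 group, so no fold is given. The B and plasma cell markers summed to between 8.44 and 16.0 CPM with vector and to 69.1, 30.0 and 15.5 CPM in circEZH2_005 samples 1 to 3, with 0 of 7 past the adjustment. The highest of these was circEZH2_005 sample 1, where the T and natural killer cell sum (1030 CPM) and the pan-leukocyte sum (625 CPM) were also highest. Of the 10 genes, 7 were highest there by CPM, among them Csf1r, Adgre1, C1qa and C1qb. Fibroblast and smooth muscle markers, of the same connective tissue, summed to between 8.69 and 10.1 CPM with vector and between 4.84 and 13.2 CPM with circEZH2_005, with 0 of 9 past the adjustment and circEZH2_005 sample 1 again the highest. Endothelial markers summed to between 1.09 and 2.41 CPM with vector and between 3.29 and 6.54 CPM with circEZH2_005, and 1 of the 2 tested, Pecam1, which leukocytes also express, was higher at 1.93 (adjusted p = 0.0377, edgeR). Pecam1 made up between 0.635 and 1.24 CPM of these sums with vector and between 2.55 and 5.22 CPM with circEZH2_005. Of the markers of the organoid itself, 2 of 8 epithelial genes were higher, 2 of 8 stem cell genes were lower and 0 of 6 Paneth cell genes passed, and 0 of 5 red blood cell genes passed. Over all genes tested, 2.69% were higher and 0.986% lower at an adjusted p under 0.05.

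**Figure D4:**
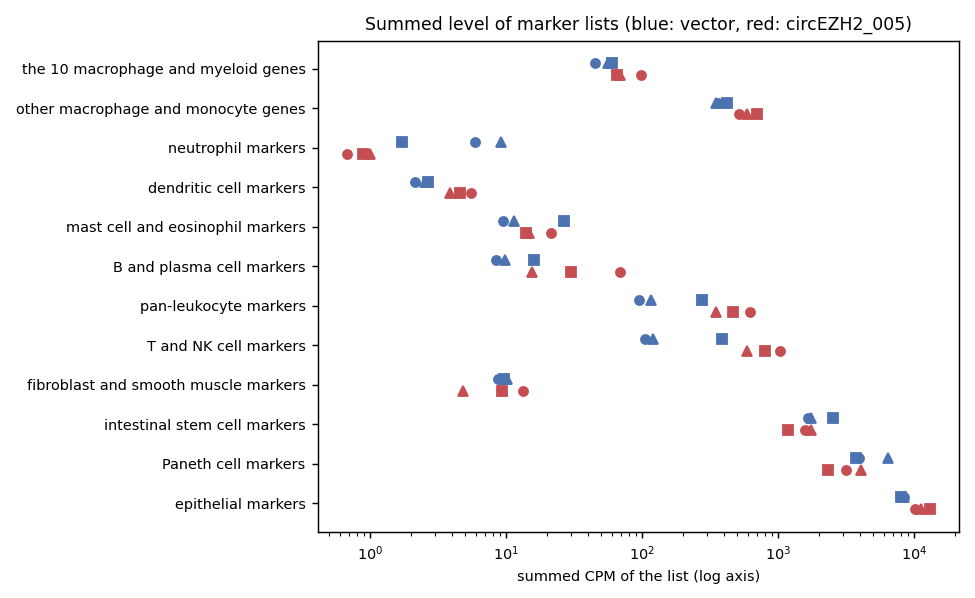
Summed CPM (horizontal log axis) of the 10 macrophage and myeloid genes and of marker lists in each vector sample (blue) and circEZH2_005 sample (red), with circles, squares and triangles for samples 1, 2 and 3. The sums of the 10 genes do not overlap between the groups (45.0 to 60.1 against 65.7 to 97.4 CPM), and neither do those of T and natural killer cell markers (105 to 387 against 589 to 1030 CPM) or pan-leukocyte markers (94.3 to 275 against 348 to 625 CPM). Also higher without overlap are the sums of other macrophage and monocyte genes (349 to 423 against 518 to 704 CPM) and of dendritic cell markers (2.15 to 2.68 against 3.87 to 5.48 CPM). So are those of epithelial markers (8060 to 8500 against 10200 to 13200 CPM), while those of neutrophil markers are lower without overlap (1.71 to 9.1 against 0.679 to 0.991 CPM). Itgax is part of the sums of the 10 genes, at 2.83 to 5.96 against 10.5 to 21.7 CPM. Taken singly, only 2 of the 10 genes, Itgax and C1qa, have groups that do not overlap.

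Levels were then set against Ptprc, the gene of the leukocyte surface protein CD45, a comparison chosen after the values were seen. Ptprc was at 22.8, 78.6 and 31.9 CPM in the vector samples and at 185, 140 and 103 CPM in those with circEZH2_005, and its log2 fold change was 1.68 (adjusted p = 0.0756, edgeR). Itgax was at 12.4%, 7.58% and 13.8% of Ptprc with vector and at 11.8%, 11.2% and 10.1% with circEZH2_005. Relative to Ptprc its groups overlapped, with a log2 ratio of 0.01 between them (two-sided exact permutation test, p = 1.0). Csf1r was at 10.5%, 5.13% and 9.29% of Ptprc with vector and at 4.5%, 2.26% and 1.61% with circEZH2_005, lower in every circEZH2_005 sample (exact permutation test, p = 0.1, the smallest possible). In all, 7 of the 10 genes were lower per Ptprc in every circEZH2_005 sample, 3 (Itgax, Itgam and C1qa) overlapped and 0 were higher. Of all genes tested 71.5% were likewise lower per Ptprc without overlap, so the 7 of 10 is close to the share over all genes. Set against the summed pan-leukocyte markers instead, 7 of the 10 were lower, beside 68.7% of all genes tested. Per Ptprc, 10 of the 10 were lower without vector sample 2, beside 90.5%, and 8 of the 10 without circEZH2_005 sample 1, beside 72.4%.

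**Figure D5:**
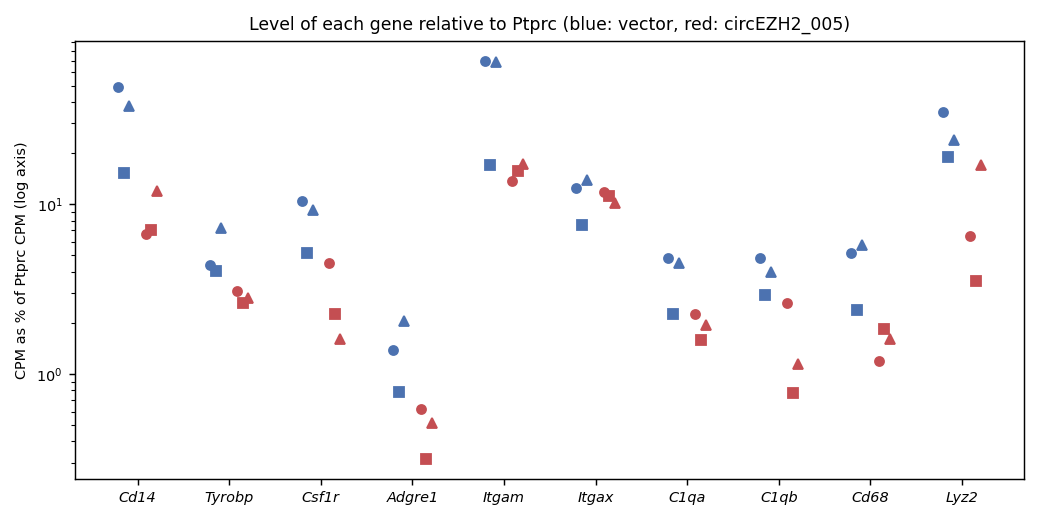
CPM of each of the 10 genes as a percentage of the CPM of Ptprc in the same sample (vertical log axis), for vector samples (blue) and circEZH2_005 samples (red), with circles, squares and triangles for samples 1, 2 and 3. Itgax lies between 7.58% and 13.8% in both groups, while the red points of Csf1r, Cd14 and Lyz2 lie below the blue ones.

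The profiles over the 6 samples were compared as root mean square differences of centred log2(CPM + 0.5), a description with the 2 groups as its main source of spread. The most alike pair was C1qa and Tyrobp, at 0.254, followed by Csf1r and C1qb at 0.261, and the least alike was Lyz2 and Itgax, at 1.094. Itgax lay at 0.262 from the mean profile of the pan-leukocyte markers and at 0.289 from that of the T and natural killer cell markers (Ncr1 included). From the mean of the other 9 genes it lay at 0.736, the reverse of the remaining genes. Those ranged from 0.505 for Tyrobp to 1.07 for Lyz2 against the pan-leukocyte mean, and from 0.155 for C1qa to 0.668 for Lyz2 against the other members. Over the 11594 genes that averaged 1 FPKM or more, those nearest to the mean profile of the 10 were Slc7a1 at 0.108, Rgs19 at 0.129, Tlr2 at 0.139 and Gpx3 at 0.14, followed by 1700017B05Rik, Cdk17, Far1, Tspyl2, Gm7846 and Atf4 at up to 0.155. None of these 10 passed the adjustment, with log2 fold changes between 0.31 and 0.67. The genes nearest to Itgax, named after the values were seen, were Adgrg5 at 0.128, Hic1 at 0.162, Tmem229b at 0.166, and Selplg at 0.167, followed by Sema4d, Ncf1, Ccr9, Fgr, Ltb and Nlrc3 at up to 0.211. Their log2 fold changes, between 1.44 and 1.88, are near that of Itgax because the genes were chosen for matching it, and Ccr9, Ltb and Nlrc3 did not pass the adjustment.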

How the data were processed

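The authors deposited 1 table with, for each gene and sample, a count of reads (whole numbers, not normalized) and its FPKM (fragments scaled by transcript length and by library). The submitters' processing notes list cutadapt 1.9, HISAT2 2.0.4, StringTie 1.3.4d, DESeq2 and mm10; the program that made the counts, the annotation and the use of strand are not given in the sources used here. Of the 28752 gene identifiers 28678 occur in GENCODE M21 (GRCm38), 28527 with the same start. Columns named NC were matched to the vector samples, the only other group, by replicate number, and 0 columns of sample values were unused.

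Counts were filtered with filterByExpr, scaled with TMM (factors 0.931 to 1.04) and tested in edgeR 4.0.16 (R 4.3.3) by its quasi-likelihood F test over 18348 genes, of which 674 passed. P-values were adjusted by the Benjamini-Hochberg method over all genes tested at a threshold of 0.05. Fold changes are circEZH2_005 over vector, and intervals use the t distribution with the fitted degrees of freedom. CPM uses the TMM-scaled library sizes. The script was tested on simulated data. DESeq2 1.42.0 and limma 3.58.1 (on log2(FPKM + 1) or log2(FPKM + 0.1), mean of at least 0.5 FPKM) were among 14 alternatives.

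The 10 genes, the 19 lists and the tests were chosen with earlier results of these data known. The rule for naming covered the 10 genes, their fixed partners and the 10 genes of most similar profile. It also covered the largest and smallest fold change of the main lists. Other genes of the lists were named after their values were seen. Among them are Irf8, C2, C1ra, Tln1 and Flt3l, which passed the adjustment, and Epcam, Cd163 and Ly6g. Floors cover counting error only. Of the promoter windows, 5 of the 10 genes matched by symbol.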

Additional observations from a re-analysis of the deposited data

How the results depend on the processing

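Across 14 alternatives the median log2 fold change of the 10 genes stayed between 0.18 and 0.73. The count with an adjusted p under 0.05 stayed 1 under 8 alternatives. It was 0 with no filter (Itgax log2 fold change 1.86, adjusted p = 0.0733) and with the replicate block (Itgax 1.84, adjusted p = 0.0704, edgeR), and between 0 and 1 with each sample left out, where Itgax lay between 1.57 and 2.14. Same-numbered samples had deviation correlations of -0.136, -0.023 and 0.036, so the numbers were not taken to pair the samples; the block moved the genes called from 674 to 277. Over the 14 alternatives the adjusted p of Itgax was between 7.85e-07 (DESeq2) and 0.152, and the other 9 genes passed in none. By fold change over 2 and unadjusted p, the count was between 1 and 3 with each sample left out, 3 without vector sample 2 and 2 without circEZH2_005 sample 2 or 3, and 1 under the other alternatives. Of the other macrophage and monocyte genes, 1 passed in the main test, 0 with no filter, 3 with a mean of at least 1 CPM, 5 with DESeq2 and between 0 and 5 with each sample left out, 5 without vector sample 2. Directions turned for Lyz2 (-0.02 by limma on log2(FPKM + 0.1), and -0.27 without circEZH2_005 sample 3 in a leave-one-out range up to 0.56), for Cd14 (0.07 without circEZH2_005 sample 2, range from -0.08) and, without circEZH2_005 sample 1, for Adgre1 (-0.12, range up to 0.66), Csf1r (-0.37, up to 0.87) and C1qb (-0.45, up to 0.99). The causes were not tested. All genes called numbered 28 without vector sample 1, 33 without vector sample 3, 68 and 169 without circEZH2_005 samples 2 and 3, 681 without circEZH2_005 sample 1, 1432 without vector sample 2, 169 with no filter and 2463 with DESeq2. The genes called were 493 higher and 181 lower in the main test, but 371 and 364 by limma with a pseudocount of 1 and 323 and 319 with 0.1. The alternatives to the level per Ptprc and the T and natural killer cell list without Ncr1 were chosen after seeing the data. Adgre1 was not tested with a mean of at least 1 CPM or by limma. The spread of 3 samples per group, and for Adgre1 counts under 100, limits what can be detected.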
